A study of Homo sapiens with 12 samples.

Results

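The genes described here are 9 components and targets of transforming growth factor beta (TGF-beta) signalling in MDA-MB-468, a cell line from a basal-like human breast cancer: the ligand genes TGFB1, TGFB2 and INHBA, the receptor genes TGFBR1 and TGFBR2, the feedback inhibitor gene SMAD7, and the target genes ID1, ID2 and ID3. They were taken by name from the 56832 gene names of the count table; all 9 were found and all passed the filter on low counts. Cells carried the vector pCDH-TRB, which expresses thyroid hormone receptor beta (TRB cells), or the empty vector pCDH-EV (EV cells). After 24 hours of hormone starvation in medium with charcoal-stripped serum, both received T3, the active thyroid hormone, at 10 nM, or its NaOH vehicle, for 24 hours. RNA was sequenced from 3 libraries in each of the 4 groups (TRB cells with T3, TRB cells with vehicle, EV cells with T3 and EV cells with vehicle), 12 in all. Each vector is represented by 1 stable population in the labels, so a difference between TRB and EV cells is a difference between those populations. Nothing in the labels ties the libraries of a group to separate cultures. The p-values therefore cover the variation among these libraries, some or all of which may be technical.

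TGF-beta ligands and the activins bind a type II receptor that activates a type I receptor, which phosphorylates SMAD2 and SMAD3. These join SMAD4 and act on genes in the nucleus. Bone morphogenetic proteins (BMPs) use related receptors and SMAD1, SMAD5 and SMAD9. In epithelial cells TGF-beta is known to hold back growth and to lower ID genes, whereas BMPs raise them; ID proteins bind basic helix-loop-helix transcription factors and keep them off DNA. MDA-MB-468 is known for a deletion of SMAD4. In these counts SMAD4 (chromosome 18, 51028394 to 51085045) had 7 to 31 counts in any library, and its level per length was 0.149 CPM (normalised read counts scaled to library size) per kilobase of exon in TRB cells with T3 and 0.123 in EV cells with vehicle, where SMAD3 stood at 8.89 and 6.32. SMAD4 was named after its values were seen.

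The promoters of the ligand genes that fell most and of the ID genes are shown because these ligand genes had the largest decreases of the 9 with T3 in TRB cells and the ID genes differed among themselves. Each is the RefSeq window on GRCh38.p14 from 250 bases before to 50 bases after an annotated start, written 5′ to 3′ on the strand of the gene; windows were found for all 9 genes, and RefSeq starts can differ from those of the gene coordinates given below, which are GENCODE 29. TGFB1 is shown from chr19:41353873-41354172 (minus strand), INHBA from chr7:41703041-41703340 (minus strand), ID1 from chr20:31605039-31605338 (plus strand), ID2 from chr2:8681806-8682105 (plus strand) and ID3 from chr1:23559452-23559751 (minus strand). Capitals mark matches to the motifs searched.
TGFB1: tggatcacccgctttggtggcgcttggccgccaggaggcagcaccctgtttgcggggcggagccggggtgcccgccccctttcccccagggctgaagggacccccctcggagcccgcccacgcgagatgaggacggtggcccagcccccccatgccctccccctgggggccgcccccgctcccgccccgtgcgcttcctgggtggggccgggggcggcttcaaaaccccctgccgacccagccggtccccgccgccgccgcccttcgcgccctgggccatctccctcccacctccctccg
INHBA: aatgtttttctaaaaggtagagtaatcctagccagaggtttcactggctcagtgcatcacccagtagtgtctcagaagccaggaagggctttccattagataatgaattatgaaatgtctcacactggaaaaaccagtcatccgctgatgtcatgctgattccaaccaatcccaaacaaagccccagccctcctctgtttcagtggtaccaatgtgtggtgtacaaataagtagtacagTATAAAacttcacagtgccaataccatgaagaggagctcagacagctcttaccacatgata
ID1: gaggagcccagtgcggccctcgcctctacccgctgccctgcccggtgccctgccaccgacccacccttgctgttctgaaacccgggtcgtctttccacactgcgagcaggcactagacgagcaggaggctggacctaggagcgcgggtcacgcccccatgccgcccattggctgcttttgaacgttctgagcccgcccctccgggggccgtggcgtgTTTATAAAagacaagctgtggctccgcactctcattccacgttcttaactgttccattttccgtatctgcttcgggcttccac
ID2: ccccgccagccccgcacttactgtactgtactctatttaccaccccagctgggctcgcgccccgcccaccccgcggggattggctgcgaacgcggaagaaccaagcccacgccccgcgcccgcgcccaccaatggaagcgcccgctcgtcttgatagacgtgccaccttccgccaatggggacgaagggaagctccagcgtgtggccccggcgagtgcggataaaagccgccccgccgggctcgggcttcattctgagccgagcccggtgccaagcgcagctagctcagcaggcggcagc
ID3: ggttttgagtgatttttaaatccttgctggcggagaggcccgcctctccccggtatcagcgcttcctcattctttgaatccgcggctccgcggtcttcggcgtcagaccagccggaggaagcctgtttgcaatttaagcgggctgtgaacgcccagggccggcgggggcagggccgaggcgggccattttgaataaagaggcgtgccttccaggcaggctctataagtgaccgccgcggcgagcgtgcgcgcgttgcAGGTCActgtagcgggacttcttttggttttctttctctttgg
The motifs searched, on both strands, were the nuclear receptor hexamer AGGTCA, its direct repeat with 4 bases between (DR4), the SMAD palindrome GTCTAGAC, the BMP SMAD core GGCGCC, the AP-1 site TGANTCA and the TATA core TATAAA. The ID3 window held AGGTCA at bases 8 to 13 after the start, counted from 1 at the start; 13.8% of 34943 promoter windows of the same length held that hexamer. The direct repeat, which is made of it, was in 0.02% of windows and in none of the 9 genes. INHBA held TATAAA 11 to 6 bases before the start. ID1 held it on both strands, in overlapping letters between 33 and 26 bases before the start. That core was in 11.6% of windows, among them 1 each of TGFB2 and SMAD7; the hexamer was also in 1 window each of TGFBR1 and SMAD7. The TGFB1 and ID2 windows held none of the motifs; the SMAD palindrome (0.203% of windows) was in no window of the 9 genes, the BMP SMAD core (19.2%) in 1 TGFBR1 window and the AP-1 site (7.72%) in 1 TGFBR2 window. A match is a description of these letters and was not tested for binding.

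Counts assigned to genes ran from 11335783 to 11915181 in TRB cells with T3, 7311623 to 8904361 in TRB cells with vehicle, 10323437 to 11955825 in EV cells with T3 and 4241863 to 7851876 in EV cells with vehicle. T3 libraries were thus deeper, and depth was examined only by thinning counts to the smallest library. MT-RNR1 and MT-RNR2, the ribosomal RNAs of mitochondria, made up 0.0502% to 0.09% of counts in T3 libraries against 0.326% to 2.68% in vehicle libraries. The part of these ribosomal RNAs in the T3 results was not tested. THRB, the gene carried by the vector, stood at 329 ± 16.7 CPM in TRB cells with T3, 140 ± 4.15 in TRB cells with vehicle, 38.5 ± 1.23 in EV cells with T3 and 43.4 ± 0.824 in EV cells with vehicle (SD, n = 3 each). THRB RNA was thus 2.35-fold higher with T3 in TRB cells (edgeR adjusted p = 1.11e-37). In EV cells the log2 fold change was -0.18 ± 0.0693 (SE, adjusted p = 0.147). T3 effects in TRB cells therefore compare groups with unequal THRB RNA, whose part was not tested. The T3 target KLF9 rose with T3 in both populations, by log2 fold changes of 3.45 ± 0.15 in TRB cells and 2.13 ± 0.18 in EV cells (SE; edgeR adjusted p = 2.29e-31 and 5.67e-15). Of 14 genes for the identity of the line, EGFR stood at 4270 to 5510 CPM as group means and PGR was listed at 0 in all libraries. Their summed level was 7340 to 7760 CPM in TRB cells with T3, 8670 to 8870 CPM in TRB cells with vehicle, 9910 to 10300 CPM in EV cells with T3 and 10300 to 10700 CPM in EV cells with vehicle. ESR1, PGR, ERBB2 and GATA3 were on the list as genes low in the line, so the sum mixes both kinds. Of the 12 tested, T3 in TRB cells lowered 6 and raised 3, beside 21.9% and 22.4% of all tested genes. The basal keratin genes KRT5, KRT17 and KRT14 were 4.02-fold, 3.04-fold and 2.49-fold lower (adjusted p = 4.3e-30, 7.13e-32 and 1.27e-20). ESR1, the estrogen receptor gene, rose 1.46-fold to 10.4 CPM, against 7.09 CPM with vehicle (adjusted p = 0.000795). The other lowered genes were GATA3, EPCAM and VIM, by 1.9-fold, 1.14-fold and 7.44-fold (adjusted p = 2.87e-21, 5.78e-05 and 1.62e-16). Besides ESR1, CDH3 and ERBB2 were raised, by 1.33-fold and 1.39-fold (adjusted p = 1.45e-10 and 6.08e-13). Of the other cell types, the summed level of 9 fibroblast markers was 21.3 to 23 CPM in TRB cells with T3 and 16.1 to 20.2 CPM in the other groups, with DCN and LUM at 0. Most of it was COL1A1, at 20.3 CPM in TRB cells with T3 and 17 CPM in TRB cells with vehicle (adjusted p = 0.0195). In EV cells COL1A1 stood at 15 CPM with T3 and 16.2 CPM with vehicle. The summed level of 6 endothelial markers was 6.2 to 6.82 CPM in TRB cells with T3 and 3.91 to 6.02 CPM in the others, with CLDN5 at 0. Within that list T3 in TRB cells raised CDH5 8.53-fold and PECAM1 1.88-fold and lowered KDR 6.5-fold (adjusted p = 7.79e-11, 0.0136 and 5.94e-08), on group means of at most 3.68 CPM. The 7 leukocyte markers summed to 185 to 197 CPM in TRB cells with T3 and 18 to 53.3 CPM in the others, most of it CD14, at 186 CPM in TRB cells with T3 and 19.6 CPM in TRB cells with vehicle. ITGAM, the other tested leukocyte marker, rose 5.28-fold with T3 in TRB cells (adjusted p = 1.61e-07), to 2.72 CPM against 0.505 CPM with vehicle. PTPRC averaged 0.32 CPM in TRB cells with T3 and 0.0455 CPM in TRB cells with vehicle, below the filter, and LYZ was at 0. The part of these markers in the results below was not tested. In such bulk samples fewer cells of a type and less RNA per cell cannot be told apart.

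T3 in TRB cells lowered the ligand genes TGFB1, TGFB2 and INHBA and the type II receptor gene TGFBR2, and raised ID1 and, by less, ID2. TGFBR1, SMAD7 and ID3 did not pass the test. Of the 9 genes 4 fell and 2 rose by edgeR's quasi-likelihood test at a Benjamini-Hochberg adjusted p below 0.05, where 21.9% of 14549 tested genes fell and 22.4% rose, 44.4% in all. The median log2 fold change of the 9 was -0.11, against -0.00168 over all tested genes. With 9 genes, this count beside that background is not read as a property of the group.

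**Figure D1:**
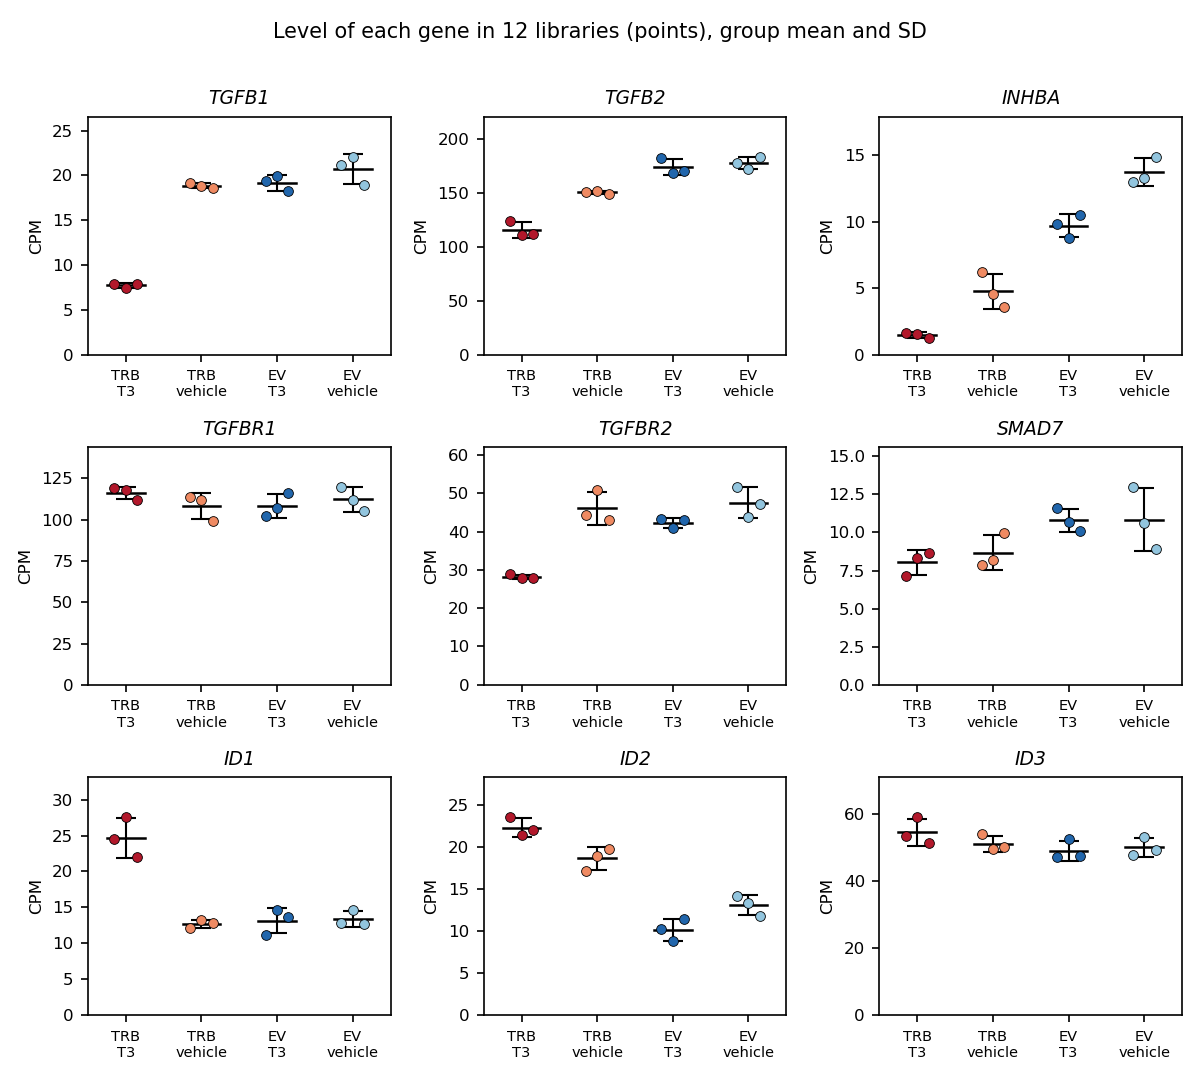
Level of the 9 genes in CPM (vertical axes, each from 0) in the 12 libraries, grouped from left to right as TRB cells with T3, TRB cells with vehicle, EV cells with T3 and EV cells with vehicle; points are libraries, long bars group means and whiskers 1 SD (n = 3). TGFB1 sits near 7.73 CPM in TRB cells with T3 and near 18.9 to 20.7 CPM elsewhere, INHBA has a different level in each group, and ID1 is high in TRB cells with T3 alone.

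TGFB1 (chromosome 19, 41301587 to 41353911, minus strand), the gene of the TGF-beta ligand that most cells make, stood at 7.88, 7.45 and 7.86 CPM in the TRB libraries with T3, against 19.2, 18.8 and 18.6 CPM in the TRB libraries with vehicle. In EV cells it stood at 19.4, 19.9 and 18.2 CPM with T3 and at 21.2, 22.1 and 18.9 CPM with vehicle. The TRB libraries with T3 were below all other libraries, and the other 9 overlapped. In TRB cells T3 lowered it 2.44-fold (log2 fold change -1.28 ± 0.112, SE; edgeR adjusted p = 3.81e-16). In EV cells the log2 fold change was -0.10 ± 0.0987 (adjusted p = 0.69; 95% interval -0.30 to 0.10), and the T3 effect in TRB cells minus that in EV cells was -1.19 ± 0.149 (adjusted p = 9.42e-10). With T3, TGFB1 was 2.48-fold lower in TRB than in EV cells (log2 fold change -1.31 ± 0.104, adjusted p = 1.11e-17), and with vehicle the log2 fold change was -0.12 ± 0.105 (adjusted p = 0.508). In order of level, EV cells with vehicle, EV cells with T3 and TRB cells with vehicle did not differ between neighbours (adjusted p = 0.69 and 0.886), and TRB cells with T3 came last. Exons of HNRNPUL1, on the other strand, share 6.64% of the exon bases of TGFB1; the strand setting of the counting was not stated, so reads in those bases are uncertain.

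INHBA (chromosome 7, 41667168 to 41705834, minus strand) encodes the subunit of activin A, a ligand that also signals through SMAD2 and SMAD3. It had 1.63, 1.53 and 1.22 CPM in TRB cells with T3 and 6.18, 4.59 and 3.55 CPM in TRB cells with vehicle. In EV cells it had 9.83, 8.79 and 10.5 CPM with T3 and 13, 13.3 and 14.9 CPM with vehicle. No 2 groups overlapped, and the order ran from EV cells with vehicle through EV cells with T3 and TRB cells with vehicle to TRB cells with T3, each neighbour differing from the next (edgeR adjusted p = 0.0139, 5.08e-07 and 6.78e-09). T3 lowered INHBA 3.25-fold in TRB cells (log2 fold change -1.70 ± 0.237, SE) and 1.43-fold in EV cells (-0.51 ± 0.136). In EV cells the adjusted p was 0.0994 by DESeq2, 0.114 when EV T3 replicate 2 was left out and 0.209 when EV vehicle replicate 3 was left out, so that call was lost. Without T3, INHBA was already 2.9-fold lower in TRB than in EV cells (log2 fold change -1.54 ± 0.167, adjusted p = 3.21e-11), and with T3 it was 6.61-fold lower (-2.73 ± 0.19, adjusted p = 2.22e-20). The T3 effect was larger in TRB cells by a log2 difference of -1.19 ± 0.275 (adjusted p = 0.000507). These values rest on few reads in TRB cells with T3, 14 to 19 counts per library, and with counts thinned to equal depth the log2 fold change of T3 in TRB cells was -2.64 and the difference -1.91, both still past the threshold.

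TGFB2 (chromosome 1, 218346235 to 218444619, plus strand), the gene of a second TGF-beta isoform, stood at 124, 111 and 112 CPM in TRB cells with T3 and at 151, 152 and 149 CPM in TRB cells with vehicle. In EV cells it stood at 183, 169 and 171 CPM with T3 and 178, 172 and 184 CPM with vehicle. It was lowest in TRB cells with T3, next in TRB cells with vehicle, and the EV groups overlapped each other. T3 lowered it 1.3-fold in TRB cells (log2 fold change -0.38 ± 0.0458, SE; adjusted p = 8.13e-11), while in EV cells the log2 fold change was -0.03 ± 0.0448 (adjusted p = 0.82); the difference between the populations was -0.35 ± 0.0641 (adjusted p = 9.81e-06). TGFB2 was 1.18-fold lower in TRB than in EV cells with vehicle (adjusted p = 8.89e-05) and 1.51-fold lower with T3 (adjusted p = 2.11e-19). Per kilobase of exon it was the highest of the 3 ligand genes in each group, at 22.4 CPM per kilobase against 2.39 for TGFB1 and 0.176 for INHBA in TRB cells with T3, and 34.5 against 6.39 and 1.65 in EV cells with vehicle. TGFB2-OT1, a non-coding gene that lies on the same strand over 26.62% of the exon bases of TGFB2, had no counts in any library, so reads there may be missing from TGFB2 in all groups alike.

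TGFBR2 (chromosome 3, 30606502 to 30694142, plus strand), the type II receptor that binds the ligand, stood at 28.8, 27.8 and 27.9 CPM in TRB cells with T3 and at 44.4, 50.8 and 42.9 CPM in TRB cells with vehicle. In EV cells it stood at 43.2, 40.8 and 43 CPM with T3 and 51.7, 43.7 and 47.3 CPM with vehicle. The TRB libraries with T3 were below all others. T3 lowered TGFBR2 1.64-fold in TRB cells (log2 fold change -0.71 ± 0.0721, SE; adjusted p = 1.61e-13); in EV cells the log2 fold change was -0.16 ± 0.0713 (adjusted p = 0.249), and the difference was -0.56 ± 0.101 (adjusted p = 8.96e-06). With T3 TGFBR2 was 1.5-fold lower in TRB than in EV cells (adjusted p = 4.73e-11), and with vehicle the log2 fold change was -0.03 ± 0.074 (adjusted p = 0.872). The 3 groups other than TRB cells with T3 did not differ between neighbours in the order of levels (adjusted p = 0.872 and 0.145). The EV groups are not neighbours in that order. All EV libraries with T3 were below all EV libraries with vehicle. The 95% interval of that log2 fold change was -0.298 to -0.0132 (edgeR unadjusted p = 0.0328). TGFBR2 is therefore not shown to be unaffected by T3 in EV cells.

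TGFBR1 (chromosome 9, 99104038 to 99154192, plus strand), the type I receptor kinase, kept a narrow range: 119, 118 and 112 CPM in TRB cells with T3 and 114, 112 and 99.2 CPM in TRB cells with vehicle. EV cells had 102, 107 and 116 CPM with T3 and 120, 112 and 105 CPM with vehicle, and all groups overlapped. The log2 fold change for T3 was 0.10 ± 0.051 in TRB cells (95% interval -0.01 to 0.20; adjusted p = 0.125) and -0.03 ± 0.0539 in EV cells (-0.14 to 0.07; adjusted p = 0.823). The intervals leave room for changes of up to 0.20 on the log2 scale, less than the change of TGFBR2.

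SMAD7 (chromosome 18, 48919853 to 48952052, minus strand) encodes the inhibitory SMAD that TGF-beta induces and that blocks the type I receptor. It stood at 7.11, 8.35 and 8.64 CPM in TRB cells with T3 and 7.89, 8.18 and 9.97 CPM in TRB cells with vehicle, and the groups overlapped. In EV cells it stood at 11.6, 10.7 and 10.1 CPM with T3 and 13, 10.6 and 8.92 CPM with vehicle. T3 gave a log2 fold change of -0.11 ± 0.142 (SE, adjusted p = 0.579) in TRB cells and 0.04 ± 0.138 (adjusted p = 0.938) in EV cells. With T3 SMAD7 was 1.34-fold lower in TRB than in EV cells (log2 fold change -0.42 ± 0.126, adjusted p = 0.00466), and with vehicle the log2 fold change was -0.28 ± 0.153 (adjusted p = 0.243), so a difference between the populations was called under T3 without a called effect of T3 in either. No neighbours in the order of its levels differed (adjusted p = 0.938, 0.0662 and 0.579).

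ID1 (chromosome 20, 31605283 to 31606515, plus strand) had 24.5, 27.6 and 22 CPM in TRB cells with T3, against 12.1, 13.2 and 12.8 CPM in TRB cells with vehicle. EV cells had 11.2, 14.6 and 13.6 CPM with T3 and 12.8, 14.6 and 12.7 CPM with vehicle. The TRB libraries with T3 were above all others, and the other 9 overlapped. T3 raised ID1 1.94-fold in TRB cells (log2 fold change 0.95 ± 0.104, SE; edgeR adjusted p = 3.07e-12), and in EV cells the log2 fold change was -0.02 ± 0.124 (adjusted p = 0.965; 95% interval -0.27 to 0.23). The difference was 0.97 ± 0.164 (adjusted p = 2.15e-06). With T3 ID1 was 1.87-fold higher in TRB than in EV cells (adjusted p = 9.92e-13), and with vehicle the log2 fold change was -0.07 ± 0.132 (adjusted p = 0.797).

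ID2 (chromosome 2, 8678845 to 8684453, plus strand) was higher in TRB than in EV cells under both treatments. It had 23.6, 21.4 and 22 CPM in TRB cells with T3 and 17.2, 19 and 19.8 CPM in TRB cells with vehicle. EV cells had 10.2, 8.79 and 11.4 CPM with T3 and 14.2, 13.3 and 11.8 CPM with vehicle, so every TRB library was above every EV library. ID2 was 2.2-fold higher in TRB than in EV cells with T3 (log2 fold change 1.14 ± 0.0993, SE; adjusted p = 6.12e-16) and 1.45-fold higher with vehicle (0.53 ± 0.12, adjusted p = 0.000702). T3 raised it 1.2-fold in TRB cells (log2 fold change 0.26 ± 0.095, adjusted p = 0.0218), a call lost by DESeq2 (0.0981), when TRB T3 replicate 1 (0.1) or TRB vehicle replicate 1 (0.121) was left out, and at thinned depth (0.105). In EV cells the log2 fold change was -0.34 ± 0.127 (adjusted p = 0.118, and 0.0493 without EV T3 replicate 3). The T3 effect in TRB cells minus that in EV cells was 0.60 ± 0.159 (adjusted p = 0.00254, but 0.0929 with counts thinned to equal depth). Exons of ID2-AS1, on the other strand, share 1.72% of the exon bases of ID2.

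ID3 (chromosome 1, 23557918 to 23559794, minus strand) had 53.3, 59.1 and 51.2 CPM in TRB cells with T3 and 53.9, 49.4 and 50 CPM in TRB cells with vehicle. EV cells had 47, 52.5 and 47.5 CPM with T3 and 47.6, 53.1 and 49.3 CPM with vehicle, and all groups overlapped. For T3 the log2 fold change was 0.09 ± 0.0632 in TRB cells (adjusted p = 0.227) and -0.03 ± 0.0685 in EV cells (adjusted p = 0.873). With T3 ID3 was 1.11-fold higher in TRB than in EV cells (log2 fold change 0.15 ± 0.0596, adjusted p = 0.0337), but that call was lost without EV T3 replicate 1 (0.147), EV T3 replicate 3 (0.152) or TRB T3 replicate 2 (0.31, with a log2 fold change of 0.09), by DESeq2 (0.13), with no filter on low counts (0.101) and with thinned counts (0.496, with a log2 fold change of 0.08). Per kilobase of exon ID3 had the highest level of the 3 ID genes, at 30.4 CPM per kilobase against 20 for ID1 and 10.1 for ID2 in TRB cells with T3, and 27.8 against 10.8 and 5.95 in EV cells with vehicle. ID4, the remaining ID gene, had 45.5, 46.8 and 38.6 CPM in TRB cells with T3 and 36.4, 31.5 and 32.8 CPM in TRB cells with vehicle. In EV cells it had 69, 67.1 and 69.7 CPM with T3 and 46.2, 49.3 and 54.1 CPM with vehicle. T3 raised ID4 in both populations, by 0.38 ± 0.073 in TRB cells (adjusted p = 1.11e-05) and 0.44 ± 0.0668 in EV cells (adjusted p = 2.15e-06) on the log2 scale, and with vehicle it was lower in TRB than in EV cells (-0.59 ± 0.0792, adjusted p = 1.9e-08). The ID genes thus had no single pattern over the 4 groups.

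**Figure D2:**
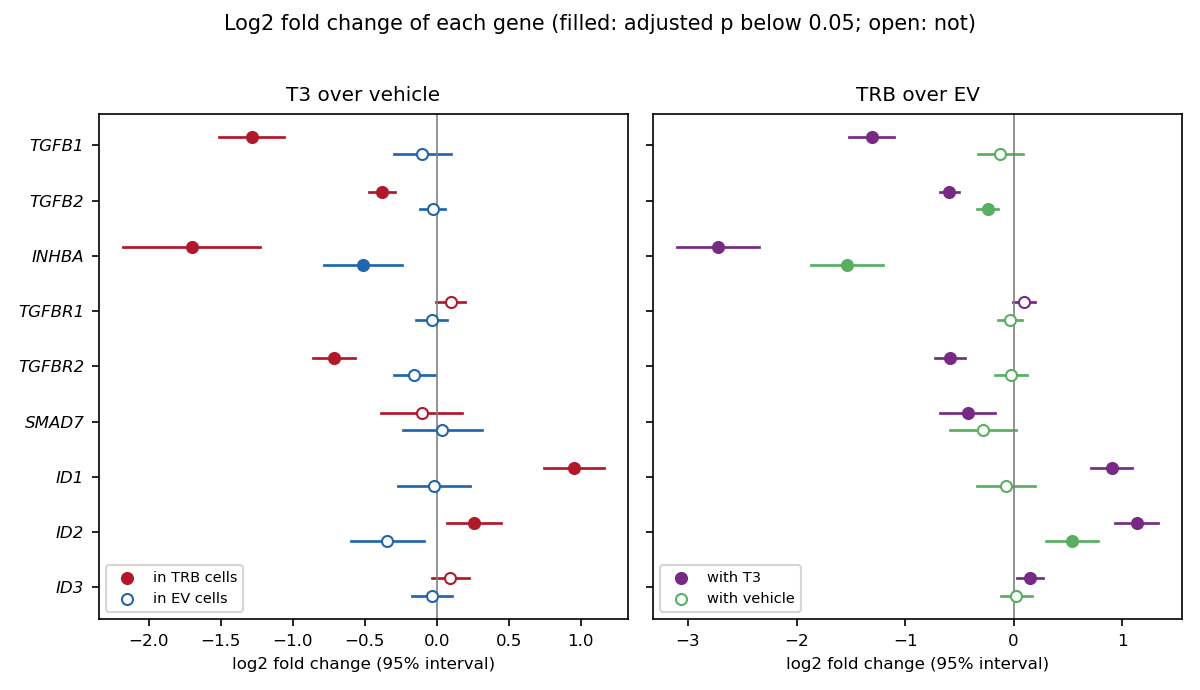
Log2 fold change (horizontal axes) of the 9 genes (rows) for T3 over vehicle in TRB and EV cells (left) and for TRB over EV cells with T3 and with vehicle (right); points are edgeR estimates, lines 95% intervals, filled points passed the threshold of 0.05 on the adjusted p and open points did not. INHBA is lower in all 4 comparisons, from -0.51 for T3 in EV cells to -2.73 for TRB over EV cells with T3, and ID1 is higher in those that involve TRB cells with T3.

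Across comparisons, 1 of the 9 genes was called for T3 in EV cells (INHBA, lower), where 4.54% of tested genes were called, 1.7% lower and 2.84% higher. That count was 0 by DESeq2 or when EV T3 replicate 2 or EV vehicle replicate 3 was left out, and 2 when EV T3 replicate 3 was. For TRB over EV cells with vehicle 3 were called, TGFB2 and INHBA lower and ID2 higher, where 15.3% of tested genes were called, 7.4% lower and 7.86% higher. With T3, 8 of 9 were called, TGFBR1 being the exception, with 5 lower and 3 higher, where 40.7% of tested genes were called, 19.7% lower and 21% higher. The T3 effect differed between the populations for 6 of 9, more negative in TRB cells for TGFB1, TGFB2, INHBA and TGFBR2 and more positive for ID1 and ID2, where 23.9% of tested genes differed, 11.6% and 12.3% in those directions. The comparisons share libraries, so their counts are not independent of each other. Group ranges did not overlap for 6 of the 9 genes for T3 in TRB cells, where 51.9% of tested genes did not, and for 3 of the 9 for T3 in EV cells, where 20.5% did not. Between TRB and EV cells they did not overlap for 3 of the 9 with vehicle, where 30.1% of tested genes did not, and for 7 of the 9 with T3, where 47.6% did not.

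For each gene whose group means spanned at least 1 on the log2 scale, the genes with the most similar pattern were found among 13995 tested genes averaging at least 1 CPM, by the root mean square difference of centred log2 CPM over the 12 libraries. TGFB1 was closest to KRT80 (0.077), ZNF469 (0.0883) and GNE (0.0888); KRT80, a keratin, stood at 34.6 CPM in TRB cells with T3, 79.2 in TRB cells with vehicle, 85.5 in EV cells with T3 and 93.2 in EV cells with vehicle. INHBA was closest to KRT16 (0.246), OLFM4 (0.254) and KRT14 (0.301), a keratin of basal cells that stood at 11.7, 29, 71 and 70.2 CPM in the same groups in that order. ID2 was closest to COLCA2 (0.139), DOCK11 (0.142) and NEO1 (0.147). NEO1 encodes neogenin, also a BMP coreceptor, and stood at 29.7 CPM in TRB cells with T3, 27.8 in TRB cells with vehicle, 14.8 in EV cells with T3 and 15.4 in EV cells with vehicle.

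The other genes of the pathway were read as 5 lists. Among ligands, latency proteins and ligand traps, 28 were in the count table and 21 passed the filter, of which T3 in TRB cells raised 6 and lowered 7 (median log2 fold change 0.09). Over all tested genes 22.4% rose and 21.9% fell, 44.4% in all, and the list counts for this comparison stand beside those shares. BMP2, a ligand of the BMP branch, had 2.06, 1.62 and 1.83 CPM in TRB cells with T3 against 11.7, 11 and 8.74 CPM with vehicle, without overlap (log2 fold change -2.51 ± 0.182, SE; adjusted p = 1.26e-19). BMP7, another BMP ligand, went the other way, at 27.4 CPM with T3 against 17.1 CPM with vehicle (0.68 ± 0.0935, adjusted p = 5.17e-09). BMP4 did not pass (-0.23 ± 0.208, adjusted p = 0.387). Of the genes for storage and activation of TGF-beta, LTBP1, a latency binding protein, fell by 0.60 ± 0.0524, and the integrin subunits ITGB6 and ITGB8, which release active ligand, by 0.69 ± 0.0602 and 0.49 ± 0.0475 on the log2 scale (adjusted p = 4.97e-16, 5.41e-16 and 4.16e-14). LTBP2 (-0.08), LTBP3 (-0.10), the integrin subunit gene ITGAV (0.09) and NRROS (0.66), which anchors latent ligand, did not pass (adjusted p = 0.788, 0.0589, 0.0533 and 0.121). LTBP4 and THBS1, also of the list, fell by 0.31 ± 0.0817 and 1.58 ± 0.109 (adjusted p = 0.00135 and 1.98e-07). Of the ligand traps, FST rose by 3.695 ± 0.498 (adjusted p = 2.79e-09), on 4 counts in total with vehicle. FSTL1 fell by 0.69 ± 0.261 (adjusted p = 0.0253), and FSTL3 and NBL1 did not pass (0.604 and 0.632). INHA and GDF11 rose by 1.23 ± 0.263 and 0.33 ± 0.107 (adjusted p = 7.29e-05 and 0.00951). LTBP2, LTBP3, LTBP4, ITGAV, NRROS, THBS1, FST, FSTL1, FSTL3, NBL1, INHA, GDF11, BMP4 and, for T3 in TRB cells, BMP7 were named after their values were seen. TGFB3, the third TGF-beta isoform, went the other way from TGFB1 and TGFB2, with 11.7, 11 and 11.4 CPM with T3 and 4.6, 3.81 and 5.33 CPM with vehicle (log2 fold change 1.33 ± 0.162, adjusted p = 1.4e-10). With vehicle, 3 genes of the list were higher and 3 lower in TRB than in EV cells, where 15.3% of tested genes were called. BMP7 had 17.1 CPM in TRB and 7.62 CPM in EV cells (log2 fold change 1.17 ± 0.138, adjusted p = 5.02e-10), and LTBP1 97 and 76.7 CPM (0.36 ± 0.057, adjusted p = 1.47e-06). In EV cells T3 raised INHBB, the second activin subunit, by 0.34 ± 0.0563 (adjusted p = 1.26e-05) and lowered ITGB8 (-0.19 ± 0.0492, adjusted p = 0.0131). That list count of 2, beside 4.54% of all tested genes called, was 1 without EV T3 replicate 2 or 3, without EV vehicle replicate 1 or 3 and with no filter on low counts. INHBB rose in TRB cells too (0.43 ± 0.0558, adjusted p = 7.33e-10), and the difference did not pass (0.09 ± 0.0798, adjusted p = 0.467). In TRB cells with T3 it stood at 23.1 CPM per kilobase, against 0.176 for INHBA.

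**Figure D3:**
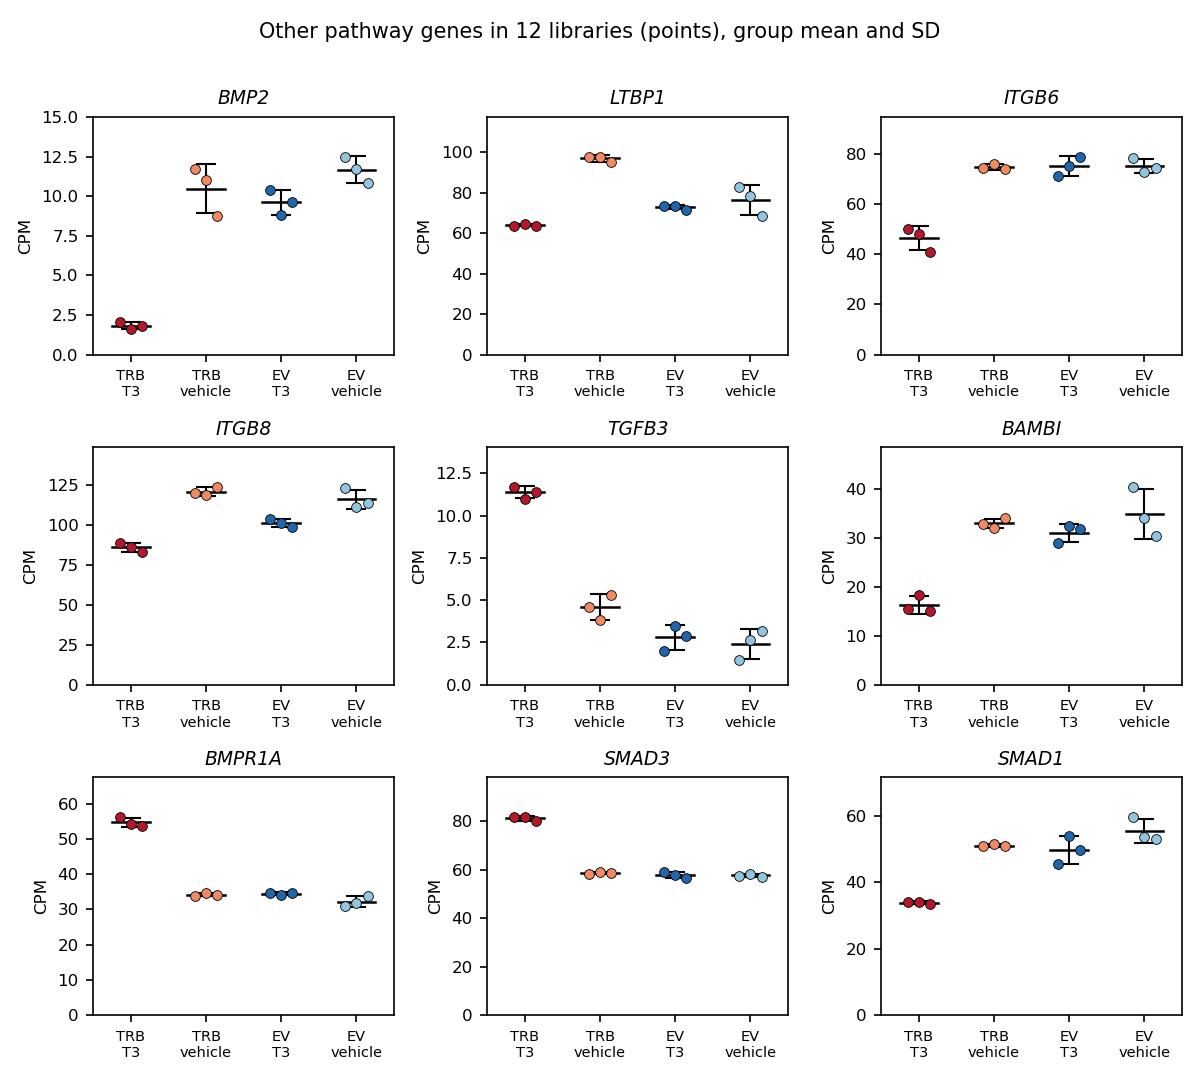
Level in CPM (vertical axes, each from 0) of 9 other genes of the pathway in the 12 libraries, grouped from left to right as TRB cells with T3, TRB cells with vehicle, EV cells with T3 and EV cells with vehicle; points are libraries, long bars means and whiskers 1 SD (n = 3). In TRB cells with T3, BMP2, LTBP1, ITGB6, ITGB8, BAMBI and SMAD1 lie below the TRB cells with vehicle, and TGFB3, BMPR1A and SMAD3 above them.

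Of 12 tested genes for other receptors T3 in TRB cells raised 3 and lowered 2, a count of 5 that was 3 with counts thinned to equal depth. BAMBI, a decoy receptor without a kinase, stood at 15.5, 18.4 and 15 CPM with T3 against 32.7, 32 and 34 CPM with vehicle (log2 fold change -1.01 ± 0.0895, SE; adjusted p = 8.22e-16). BMPR1A, a type I BMP receptor, stood at 56.2, 54.2 and 53.6 CPM with T3 against 33.8, 34.6 and 34 CPM with vehicle (0.68 ± 0.0649, adjusted p = 1.99e-14). The coreceptor gene TGFBR3 rose by 0.53 ± 0.108 (adjusted p = 3.78e-05) and ENG, another coreceptor, by 0.33 ± 0.0847 (adjusted p = 0.000797, but 0.247 thinned). ACVR1, a type I receptor, fell by 0.24 ± 0.0827 (adjusted p = 0.0126), a call lost by DESeq2 (0.0529), without TRB vehicle replicate 1 (0.081) or 2 (0.0555) and with thinned counts (0.179). With vehicle NEO1 was higher in TRB than in EV cells (0.87 ± 0.106, adjusted p = 1.28e-09), as was TGFBR3 (0.44 ± 0.14, adjusted p = 0.0206). TGFBR3 did not pass by DESeq2 (0.0778), nor without EV vehicle replicate 1 (0.0918) or TRB vehicle replicate 1 (0.13), nor thinned (0.0826). For T3 in EV cells 0 of the 12 were called by edgeR, beside 4.54% of all tested genes. By DESeq2 0 were called and 0 had an unadjusted edgeR p below 0.05, which does not show that they did not change.

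Among 19 tested SMADs and SMAD regulators T3 in TRB cells raised 2 and lowered 6, a share near the 44.4% of all tested genes called. SMAD3, which carries the TGF-beta signal, had 81.7, 81.5 and 80 CPM with T3 against 58.2, 59.1 and 58.5 CPM with vehicle (log2 fold change 0.47 ± 0.053, SE; adjusted p = 1.19e-11). SMAD1, of the BMP branch, had 34, 34.2 and 33.5 CPM with T3 against 50.9, 51.5 and 50.8 CPM with vehicle (-0.59 ± 0.0673, adjusted p = 1.34e-11). The corepressor gene TGIF1 fell by 0.29 ± 0.047, the ubiquitin ligase gene SMURF1 by 0.33 ± 0.0557 and SMAD2 by 0.24 ± 0.0448 on the log2 scale (adjusted p = 3.35e-07, 9.61e-07 and 5.09e-06). With vehicle, PMEPA1, a TGF-beta induced inhibitor, was higher in TRB than in EV cells (0.25 ± 0.0565, adjusted p = 0.000695). SMAD6, the inhibitory SMAD of the BMP branch, was lower (-0.34 ± 0.113, adjusted p = 0.0307), a call lost by DESeq2 (0.103), without EV vehicle replicate 2 (0.112) or 3 (0.0843), without TRB vehicle replicate 1 (0.13) or 2 (0.114) and thinned (0.182). For T3 in EV cells 0 of the 19 were called by edgeR, beside 4.54% of all tested genes, and 0 by DESeq2. An unadjusted p below 0.05, with a lower level, was found for 3: SMURF1 (-0.13), TGIF1 (-0.10) and SMAD1 (-0.14), with adjusted p = 0.21, 0.242 and 0.277.

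Of 33 TGF-beta response genes 24 were tested, and T3 in TRB cells raised 9 and lowered 7, beside 22.4% and 21.9% of all tested genes, with a median log2 fold change of -0.01. TPM1, a tropomyosin, rose by 0.63 ± 0.0373, the transcription factor KLF10, also named TGF-beta inducible early gene, by 1.10 ± 0.0677 and GADD45B, a stress response gene, by 0.80 ± 0.0629 (SE; adjusted p = 6.92e-24, 3.76e-23 and 5.34e-17). CDKN1A, which encodes the cell cycle inhibitor p21, stood at 12.5, 13.1 and 11 CPM with T3 against 25.6, 31.2 and 27.7 CPM with vehicle in TRB cells (log2 fold change -1.21 ± 0.0983, adjusted p = 1.8e-17). VIM, the mesenchymal filament vimentin, stood at 1.11, 0.808 and 0.611 CPM with T3 against 7.49, 5.38 and 6.42 CPM with vehicle (-2.90 ± 0.246, adjusted p = 1.62e-16). Genes that TGF-beta is known to induce were thus found on both sides. With vehicle, 2 genes of this list were higher and 8 lower in TRB than in EV cells, beside 7.86% higher and 7.4% lower of all tested genes. The smallest p-values were those of the cytokine gene LIF (-1.26 ± 0.106, adjusted p = 1.79e-15) and TPM1 (-0.40 ± 0.0386, adjusted p = 5.45e-13). In EV cells T3 raised PDGFB (0.29, adjusted p = 0.00134) and lowered CDKN1A (-0.57, adjusted p = 0.000183) and FN1 (-0.28, adjusted p = 0.0263). Over all tested genes 4.54% were called there. PDGFB and FN1 moved the same way in TRB cells (0.44 and -0.27, adjusted p = 1.41e-09 and 0.00455). INHBB, PDGFB and FN1 were named after their values were seen.

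Of the BMP response genes and ID partners 5 of 11 were tested, and T3 in TRB cells raised ID4 and HEY1 and lowered HES1 and TCF3. TCF12, an E protein gene of the list that most cells express, was listed at 0 in all 12 libraries. The cause was not tested, and a gene listed at 0 is therefore not read as absent. HES1 and HEY1 are repressors of the helix-loop-helix class, at -0.36 ± 0.0522 and 1.65 ± 0.504 (SE; adjusted p = 3.04e-08 and 0.00531), and TCF3, an E protein that ID proteins bind, stood at -0.17 ± 0.0433 (adjusted p = 0.00058). HEY1 rested on 1 to 13 counts per library. GATA2 stood at 0.03 ± 0.196 (adjusted p = 0.926). With vehicle HEY1 stood at -1.51 ± 0.58 between TRB and EV cells (adjusted p = 0.0679), on 0.394, 0.448 and 0.137 CPM in TRB cells and 0.722, 0.939 and 1.15 CPM in EV cells.

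**Figure D4:**
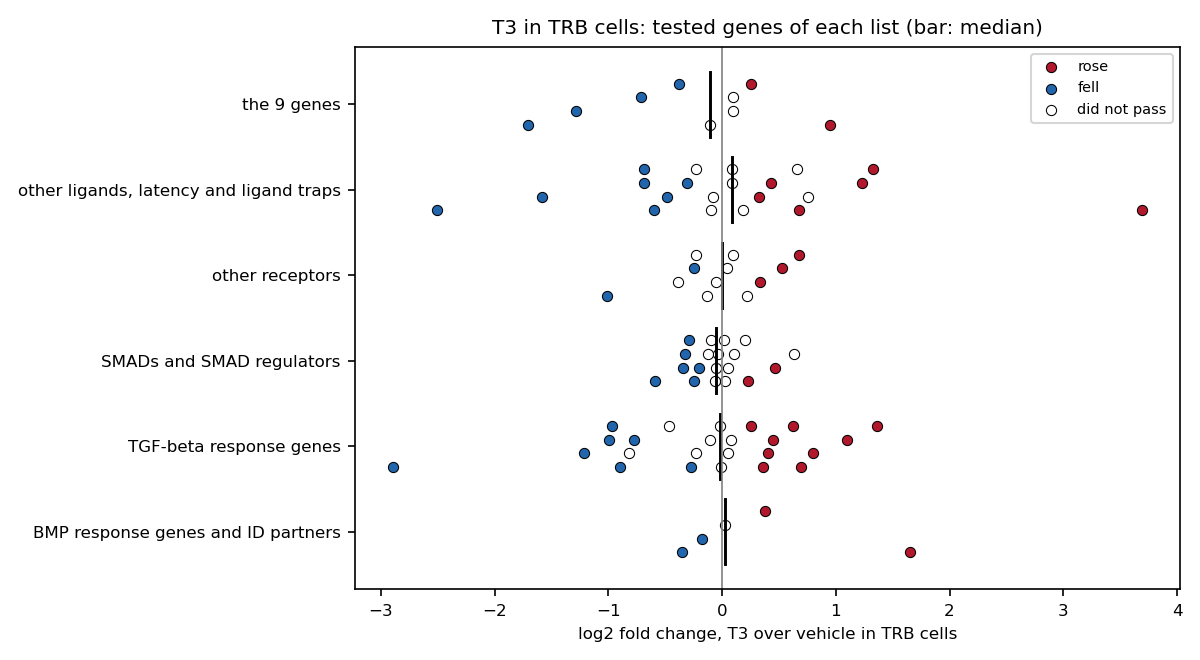
Log2 fold change for T3 over vehicle in TRB cells (horizontal axis) of the tested genes of each list (rows); each point is a gene, red rose, blue fell and white did not pass at an adjusted p of 0.05, and the bar is the median of the list. Every list holds genes that rose and genes that fell; the medians lie between -0.11 for the 9 genes and 0.09 for other ligands, latency proteins and traps.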

How the data were processed

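Expression was measured by RNA sequencing in 12 libraries, 3 per group. The values used are raw counts for each gene, whole numbers as deposited by the authors. CASAVA 1.7, STAR 2.7, HTSeq 0.10, DESeq2 and hg38 are named in the submitters' processing notes. Per the labels' protocols, the kit was NEBNext Ultra II RNA; its strand setting in counting is not stated there. A second deposited table holds normalized values, treated as a score: each count over a single library factor, rounded. It served only as a check. Lines naming no gene made up 31.87% to 39.24% of each file and were dropped. Reads carry no molecular identifiers.

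Genes passed edgeR's filterByExpr (minimum 10 counts, total 15). With TMM scaling, edgeR 4.0.16 (R 4.3.3) fitted the 4 group means to 14549 genes, leaving 8 residual degrees of freedom; quasi-likelihood tests were adjusted by Benjamini-Hochberg over all of them. CPM use TMM library sizes. The SE was obtained by dividing the log2 fold change by the root of F. Lengths are unions of GENCODE 29 exons (29502 names matched). The steps were checked on simulated counts.

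The 9 genes and the lists were chosen with earlier results of these data known. From each list, the text names up to 5 genes with the smallest p for T3 in TRB cells and up to 2 for TRB over EV cells with vehicle. Alternatives covered DESeq2 1.42.0, RLE scaling, other filters on low counts, a fit on the compared groups only, a replicate block, leaving out single libraries, and thinning to 4241863 counts. A protein-coding subset, a GC correction and the alternatives for the lists were chosen after seeing the data.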

Additional observations from a re-analysis of the deposited data

Results flagged for a closer look

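The T3 effect differed between TRB and EV cells for 6 of the 9 genes by the test of the difference itself. As the log2 fold change in TRB cells minus that in EV cells, it was -1.19 for TGFB1, -0.35 for TGFB2, -1.19 for INHBA and -0.56 for TGFBR2, and 0.97 for ID1 and 0.60 for ID2. With counts thinned to equal depth the difference for ID2 did not pass (edgeR adjusted p = 0.0929). Single libraries were not tested for outlying values.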

How the results depend on the processing

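Of the 9 genes, 6 were called for T3 in TRB cells and 5 to 7 under 21 alternatives; for TRB over EV cells with vehicle 3 were called under every one of 21, with T3 8 were called and 7 to 8 under the alternatives, and the T3 effect differed between populations for 6 under every one of 20. Those 6 were not the same genes throughout. With thinned counts ID2 was lost (edgeR adjusted p = 0.0929) and TGFBR1 was gained (0.0354). The effects of T3 in TRB cells on TGFB1, TGFB2, INHBA, TGFBR2 and ID1 kept direction and call under all 21. For T3 in EV cells 660 genes were called, against 407 by DESeq2 and 430 with thinned counts, and 275 to 712 with 1 library left out; of the 9 genes 1 was called, against 0 by DESeq2 and 0 to 2 with 1 library left out. Without EV T3 replicate 2 that gene count was 341, without EV vehicle replicate 1 it was 396 and without EV vehicle replicate 3 it was 275. The EV vehicle libraries held from 4241863 counts; a gene that was not called there is not shown to be unaffected.

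The log2 fold changes that changed sign belonged to genes that did not pass. With counts thinned they were ID3 for T3 in TRB cells (-0.0047), and SMAD7 (-0.026) and ID1 (0.0502) for T3 in EV cells. With the GC trend removed SMAD7 for T3 in EV cells was -0.0035, and GATA2 for T3 in TRB cells was -0.0098, or -0.13 thinned. With 1 library left out the ranges for T3 in EV cells were -0.0898 to 0.0090 for TGFBR1, -0.11 to 0.15 for SMAD7, -0.10 to 0.0786 for ID1 and -0.0856 to 0.0084 for ID3. With vehicle, TRB over EV cells gave -0.0923 to 0.019 for TGFBR1, -0.11 to 0.0215 for TGFBR2 and -0.0206 to 0.0631 for ID3. The difference of T3 effects was -0.26 to 0.0072 for SMAD7, and T3 in TRB cells gave -0.12 to 0.24 for GATA2. TGFBR1 passed for T3 in TRB cells with the GC trend removed (adjusted p = 0.0238), for TRB over EV cells with T3 without EV T3 replicate 3 (0.0274) or thinned (0.044), and for the difference of T3 effects thinned (0.0354).

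Libraries that share a number did not deviate together (r from -0.132 to 0.102 over 18 pairs, 1 of them above 0.1), so the numbers were not taken as pairs. With the replicate number as a block the counts were 6437 genes and 6 of the 9 for T3 in TRB cells, 647 and 1 in EV cells, 2195 and 3 between the populations with vehicle, 5898 and 8 with T3, and 3493 and 6 for the difference.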
